A study of Mus musculus with 3 samples.

Results

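Expression of the fibronectin, tenascin, thrombospondin and related matricellular genes was followed in cultured mouse dermal fibroblasts of 3 Fgfr3 genotypes. The family list held 10 genes: fibronectin (Fn1), the fibronectin type III domain gene Fndc1, tenascin C (Tnc), periostin (Postn), the thrombospondins Thbs1, Thbs2 and Thbs3, cartilage oligomeric matrix protein (Comp), Sparc and osteopontin (Spp1). The genes were chosen by symbol, from the platform's annotation, and a probe set counted only where it was annotated to that symbol alone. Of the 10 genes, 7 had such a probe set, each of them 1, among the 7842 named genes of the table. Thbs1 was listed only on a probe set that carries a second symbol, and no probe set of the annotation used was matched to Comp or Spp1, so these 3 genes were not analysed here.

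FGFR3Act cells were dermal fibroblasts of mice labelled Fgfr3G374Rneo-, in which Fgfr3, the tyrosine kinase receptor of several fibroblast growth factors, is constitutively active without ligand. FGFR3KO cells came from mice labelled FGFR3G374Rneo+, which carry the same G374R change with the neo cassette still present and lack a functional receptor. Wild-type Bl6 mice gave the FGFR3WT cells. All cells were kept in fibroblast growth medium without treatment. The age and number of the animals and the passage of the cultures are not stated in the labels. Each genotype had 1 array column, although the series design states 3 samples per group, so no difference below could be set against a spread between replicates, and none carries a p-value. The precision of every value is limited by the number of arrays.

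Matricellular proteins are secreted into the extracellular matrix, where they act mainly on cell behaviour and on matrix assembly and less as load-bearing fibres. Fibronectin differs in that it forms fibrils of its own, on which collagens and other matrix proteins are laid down during wound repair. Tenascin C, periostin and the thrombospondins are low in most resting adult skin, appear in wounds and fibrotic tissue, and signal to fibroblasts through integrins, CD36, CD47 and syndecans.

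The arrays measured fibroblast cultures, and markers listed for other cell types differed between them. Among these were the macrophage list on FGFR3Act and the smooth muscle and pericyte list on FGFR3KO. Of 12 fibroblast markers on the array, 11 had signals above the floor in each of the 3 genotypes. The floor was the 40th percentile of each array's signals and stood at 123 (FGFR3Act), 122 (FGFR3KO) and 121 (FGFR3WT). Of 17 macrophage and leukocyte markers, FGFR3Act had 15 above the floor and FGFR3KO 2, against 1 on FGFR3WT. Their summed signals were 37043 on FGFR3Act, 1306 on FGFR3KO and 1187 on FGFR3WT. The integrin subunit Itgam and, by the probe set used, the pan-leukocyte gene Ptprc were below the floor on every array, although a second Ptprc probe set had a signal of 263 on FGFR3Act. Smooth muscle and pericyte markers, 5 on the array, summed to 8539 on FGFR3Act and 14895 on FGFR3KO, against 7790 on FGFR3WT. Most of each sum was Acta2, with 7424 on FGFR3Act and 10494 on FGFR3KO, against 6145 on FGFR3WT. Myh11 was above the floor only on FGFR3KO, at 370, and Des and Rgs5 were below the floor throughout. Whether these signals came from another cell type was not tested. Of 2 chondrocyte and bone markers on the array, Ibsp was below the floor throughout. The other, Acan, had 68.5 on FGFR3Act, below the floor, and 319 on FGFR3KO, against 202 on FGFR3WT. Summed fibroblast marker signals were 50602 on FGFR3Act, 73203 on FGFR3KO and 54192 on FGFR3WT. The beta-actin control probe sets had a ratio of 3' to 5' signal of 1.44 on FGFR3Act and 1.82 on FGFR3KO, against 1.64 on FGFR3WT. Fgfr3 itself, with signals of 2.42, 3.76 and 1.06 on the same arrays, was far below the floor and gave no check of the genotypes. Fewer fibroblasts in a culture and less transcript per fibroblast cannot be told apart in these RNA samples.

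As deposited, 4 genes were 2-fold or more apart in at least 1 pair of arrays. Of these, Fndc1 and Thbs3 were lowest on FGFR3Act, and Tnc and Thbs2 were highest there. Postn and Sparc were also lowest on FGFR3Act, and Fn1 highest, but none of them reached 2-fold in any pair. The upstream sequences of the 4 genes are shown to set the pairs beside each other. Each is the 250 bases before the annotated start from RefSeq (GRCm38.p6), read 5' to 3' on the gene's strand; for Tnc, which has 2 annotated starts, the outer one was used. The only annotated start in the table for Fndc1 lies inside the gene's full span, so that 38 bases of its window fall within the span. They lie at chr17:7827303-7827552 (minus strand, Fndc1), chr3:89214930-89215179 (plus strand, Thbs3), chr4:64047016-64047265 (minus strand, Tnc) and chr17:14694263-14694512 (minus strand, Thbs2). Capitals mark every match, on either strand, to the TATA box (TATAAA), the GC box (GGGCGG) and the CCAAT box (CCAAT).
Fndc1: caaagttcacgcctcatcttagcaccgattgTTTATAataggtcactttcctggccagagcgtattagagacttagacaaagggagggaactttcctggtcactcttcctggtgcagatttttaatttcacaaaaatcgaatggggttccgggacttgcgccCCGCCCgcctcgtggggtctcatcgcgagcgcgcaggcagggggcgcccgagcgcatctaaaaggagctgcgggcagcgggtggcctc
Thbs3: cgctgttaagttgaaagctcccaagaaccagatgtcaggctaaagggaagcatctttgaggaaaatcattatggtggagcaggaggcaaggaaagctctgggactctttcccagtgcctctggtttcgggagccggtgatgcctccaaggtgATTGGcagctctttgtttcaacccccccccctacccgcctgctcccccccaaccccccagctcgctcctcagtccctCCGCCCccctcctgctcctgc
Tnc: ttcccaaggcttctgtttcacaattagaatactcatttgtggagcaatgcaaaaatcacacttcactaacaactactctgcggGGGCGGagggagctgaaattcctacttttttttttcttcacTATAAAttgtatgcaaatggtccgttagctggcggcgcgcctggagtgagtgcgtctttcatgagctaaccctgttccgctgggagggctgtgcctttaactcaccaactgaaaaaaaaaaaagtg
Thbs2: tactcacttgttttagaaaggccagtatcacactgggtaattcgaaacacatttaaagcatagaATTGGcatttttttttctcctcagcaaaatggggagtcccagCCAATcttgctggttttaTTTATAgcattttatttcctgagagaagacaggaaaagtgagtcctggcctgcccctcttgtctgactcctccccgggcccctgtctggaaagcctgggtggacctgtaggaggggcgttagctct

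TATAAA letters lay in the windows of Fndc1, Tnc and Thbs2, at 219, 126 and 126 bases before the start. The matches of Fndc1 and Thbs2 were on the strand opposite to the gene, and the Tnc match lay 205 bases before its inner start. Postn had a match 26 bases before the inner of its 2 annotated starts and none before the outer. Of 32851 such windows of the mouse table, 12.4% hold these letters. Fndc1, Thbs3 and Tnc held a GC box, as 32.7% of all windows do, and Thbs2 and Thbs3 a CCAAT box, as 33.8% do. These 3 motifs did not overlap in the windows shown. The AP-1 element (TGANTCA), the CRE (TGACGTCA) and the CArG box, bound by AP-1, CREB and serum response factor, had no match on either strand in any window of the 6 genes with an entry (Fndc1, Postn, Sparc, Thbs2, Thbs3 and Tnc), against 6.75%, 1.55% and 1.47% of all windows. Such matches describe letters in a short window and were not linked to any measurement of binding.

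Fndc1 and fibronectin differed in order. Fndc1 encodes a secreted protein with fibronectin type III domains, and its gene spans chromosome 17 from 7738569 to 7827340. Its signal was 145 on FGFR3Act, 870 on FGFR3KO and 957 on FGFR3WT. The FGFR3Act array stood far below the other two, only 1.18 times above its floor, while the FGFR3KO and FGFR3WT arrays lay close together. The difference of FGFR3Act from FGFR3WT was -2.72 on the log2 scale, or 6.60-fold lower, and from FGFR3KO -2.59, or 6.01-fold lower. With a higher floor, at the 60th percentile, FGFR3Act lay at the floor and the log2 differences shrank to -1.51 and -1.38, which are then bounds and still past 2-fold. Among 5244 genes compared between FGFR3Act and FGFR3WT, Fndc1 ranked 7 from the lowest.

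Fibronectin (Fn1, chromosome 1, 71585473 to 71653280) had signals of 2001 on FGFR3Act and 1981 on FGFR3KO, against 1612 on FGFR3WT. Both mutant arrays were nearly level and slightly above wild type. The difference was 0.31 (1.24-fold higher) for FGFR3Act and 0.30 (1.23-fold higher) for FGFR3KO, both against the same FGFR3WT array. Between FGFR3Act and FGFR3KO it was 0.01. The direction on FGFR3Act against FGFR3WT depended on the scaling and turned to -0.03 under 1 of the marker centrings described below. The probe set gives 1 value for the gene, and the splice forms of fibronectin with extra domains, which mark wound and fibrotic matrix, were not separated here.

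Tenascin C and periostin, both typical of healing skin, differed in order. Tnc encodes a large multi-armed glycoprotein that loosens cell adhesion (chromosome 4, 63959785 to 64047015). It had a signal of 5617 on FGFR3Act and 4316 on FGFR3KO, against 2773 on FGFR3WT. Both mutants were above wild type. FGFR3Act was 2.03-fold higher than FGFR3WT, with a log2 difference of 1.02 that dropped below 2-fold after cyclic loess normalisation (0.98) and after 1 marker centring (0.67). FGFR3KO was 1.56-fold higher than FGFR3WT (log2 difference 0.64).

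Postn encodes a collagen-binding protein with fasciclin domains that takes part in collagen cross-linking (chromosome 3, 54359267 to 54391041). Its signal was 4083 on FGFR3Act, 7292 on FGFR3KO and 6046 on FGFR3WT. FGFR3Act was the lowest array and FGFR3KO the highest. FGFR3Act was 1.48-fold lower than FGFR3WT (log2 difference -0.57) and 1.79-fold lower than FGFR3KO (-0.84), while FGFR3KO was 1.21-fold higher than FGFR3WT (0.27). None of these reached 2-fold in the deposited scaling.

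**Figure D1:**
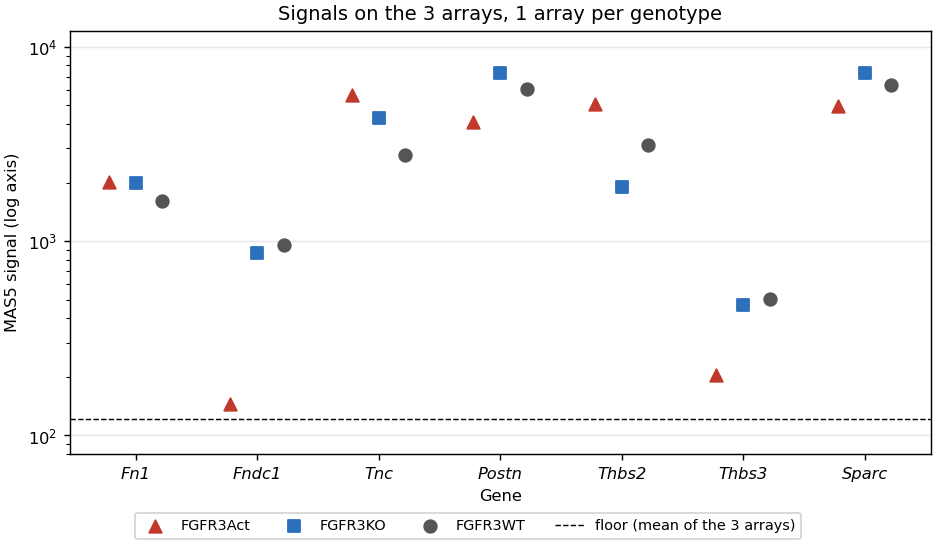
Deposited MAS5 signal (log axis) of the 7 genes on the FGFR3Act, FGFR3KO and FGFR3WT arrays, each point being 1 array with no replicate error; the dashed line is the mean floor. Fndc1 (145) and Thbs3 (204) on FGFR3Act lie nearest the floor, Tnc stands in the order FGFR3Act, FGFR3KO, FGFR3WT, and Thbs2 is lowest on FGFR3KO (1888).

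The 2 measured thrombospondins went opposite ways on FGFR3Act. Thbs2 encodes a trimeric thrombospondin that restrains blood vessel growth and clears matrix metalloproteinases through the receptor Lrp1 (chromosome 17, 14665500 to 14694262). It had signals of 5093 on FGFR3Act and 1888 on FGFR3KO, against 3124 on FGFR3WT. Wild type lay between the mutants, with FGFR3Act 1.63-fold higher (log2 difference 0.71) and FGFR3KO 1.66-fold lower (-0.73). Set against each other, FGFR3Act was 2.70-fold higher than FGFR3KO, a log2 difference of 1.43 that ranked 201 from the highest of 5297 genes. Over the 12 alternative settings it ranged between 1.01 and 1.90, both ends set by centring on fibroblast markers.

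Thbs3 belongs to the pentameric thrombospondins, which lack the vessel-inhibiting repeats of Thbs2 (chromosome 3, 89215180 to 89226841). Its signal was 204 on FGFR3Act, 467 on FGFR3KO and 505 on FGFR3WT. FGFR3Act stood apart below the other two arrays, which were close. It was 2.47-fold lower than FGFR3WT (log2 difference -1.31) and 2.29-fold lower than FGFR3KO (-1.19). FGFR3KO differed from FGFR3WT by -0.11. When the floor was set at the 60th percentile, the FGFR3Act signal lay at it and the first 2 differences shrank to -0.59 and -0.48, as bounds that no longer reach 2-fold.

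Sparc, or osteonectin, is a calcium- and collagen-binding glycoprotein that helps procollagen reach the matrix (chromosome 11, 55394159 to 55420080). It had signals of 4949 on FGFR3Act and 7304 on FGFR3KO, against 6319 on FGFR3WT, the same order as Postn. FGFR3Act was 1.28-fold lower than FGFR3WT (log2 difference -0.35) and 1.48-fold lower than FGFR3KO (-0.56), and FGFR3KO was 1.16-fold higher than FGFR3WT (0.21). The difference between FGFR3KO and FGFR3WT turned to -0.10 after quantile normalisation, so its direction depended on the scaling.

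Set against wild type, the family was spread out on FGFR3Act. Of the 7 genes, FGFR3Act was above FGFR3WT by 2-fold or more for 1 (Tnc) and below it by that much for 2 (Fndc1 and Thbs3). Over all 5244 genes compared, 4.14% lay that far above, 4.79% that far below and 8.92% that far apart in either direction. The median log2 difference of the 7 genes was -0.35, against -0.07 for all genes, with 3 genes above 0 and 4 below. All 7 genes were above the floor on every array, so the filter on low signals left none out.

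FGFR3KO stayed close to wild type. None of the 7 genes differed by 2-fold or more between FGFR3KO and FGFR3WT, and the log2 differences ran between -0.73 (Thbs2) and 0.64 (Tnc). Of all 5184 genes, 1.93% lay 2-fold or more above wild type, 3.61% as far below and 5.54% as far apart in either direction, so a count of 0 among 7 is near what the table as a whole shows. The median was 0.21 for the 7 genes and -0.02 for all genes, and the first turned to -0.03 after quantile normalisation.

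Between the 2 mutants, FGFR3Act was above FGFR3KO by 2-fold or more for 1 gene (Thbs2) and below it for 2 (Fndc1 and Thbs3). The shares over all 5297 genes were 8.33% higher, 7.49% lower and 15.8% in either direction. The median of the 7 genes was -0.56, against -0.05 for all genes. The FGFR3Act array enters this comparison and the one with wild type, so the low values of Fndc1 and Thbs3 there are 1 observation each and not 2.

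**Figure D2:**
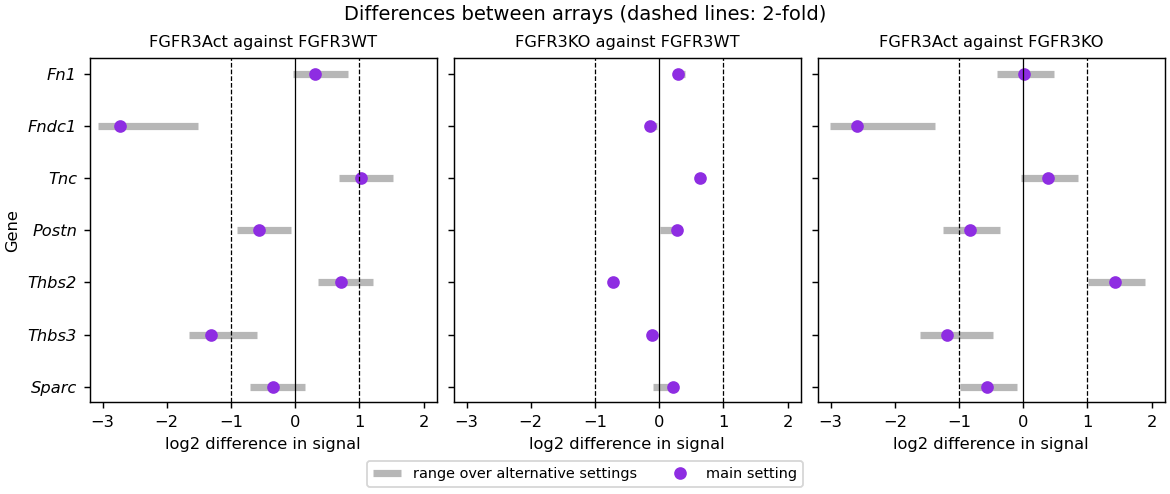
Log2 difference in signal of the 7 genes for each pair of arrays (points), with the range over 12 alternative settings as grey bars, which are not replicate errors; dashed lines mark 2-fold. Fndc1 stays beyond 2-fold lower on FGFR3Act under every setting run, whereas the bars of Thbs3 cross the line in both of its FGFR3Act comparisons.

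The macrophage transcripts on FGFR3Act stood beside each of these differences. Each of the 15 macrophage and leukocyte markers that could be compared was 2-fold or more above FGFR3WT on FGFR3Act, with a median log2 difference of at least 3.47. All of them but Cd14 were below the floor on FGFR3WT. They thus entered the comparison only through FGFR3Act, and their differences, the median included, are bounds. The 11 fibroblast markers had a median of -0.42. The part of the macrophage transcripts in the family's differences was not tested. Scaling the arrays on their 11 fibroblast markers was tried in 2 ways after the data were seen, and the 2 ways moved FGFR3Act in opposite directions.

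The first way centred each array on the median log2 signal of the markers. It put the median log2 difference of all genes at -0.41 for FGFR3Act against FGFR3WT, although the markers' own median difference was -0.42. The middle marker was S100a4 on all 3 arrays, so this centring rested on 1 gene, whose signal was 3980 on FGFR3Act and 2974 on FGFR3KO, against 3137 on FGFR3WT. S100a4 was above FGFR3WT on FGFR3Act by 0.34, whereas 8 of the 11 markers were below it. With it Fndc1 came to -3.07 against FGFR3WT, Thbs3 to -1.65, Tnc to 0.67 and Thbs2 to 0.36, and Fn1 came to the other side of 0, at -0.03. No gene was then 2-fold above FGFR3WT, and the 2 genes as far below were Fndc1 and Thbs3. Against FGFR3KO, Postn came to -1.26, past 2-fold lower, and Tnc to -0.04.

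The second way, defined once the values of the first had been seen, shifted each array by the median deviation of its markers from their mean over the arrays. It put the median of all genes at 0.44 for FGFR3Act against FGFR3WT. Fndc1 then stayed at -2.22, Thbs3 came to -0.80, Tnc to 1.52 and Thbs2 to 1.21, and Sparc came to the other side of 0, at 0.15. On this scale 2 genes (Tnc and Thbs2) were past 2-fold above FGFR3WT and 1 (Fndc1) was past 2-fold below. Of all genes, 217 were 2-fold or more above FGFR3WT on FGFR3Act and 251 as far below in the deposited scaling, against 127 and 690 the first way and 741 and 54 the second. Fndc1 was thus past 2-fold lower on FGFR3Act either way, whereas the calls for Tnc and Thbs3 depended on the scaling.

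Each of the 7 genes rests on 1 probe set, so no second probe set could be set beside it. The fibroblast markers Col1a1 and Col3a1, with 2 probe sets each, show how far that can matter on FGFR3Act. The brighter Col1a1 probe set had signals of 7845 on FGFR3Act and 8475 on FGFR3WT, and the other 1251 and 9602. The brighter Col3a1 probe set had 4166 and 8069, and the other 193 and 1748.

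**Figure D3:**
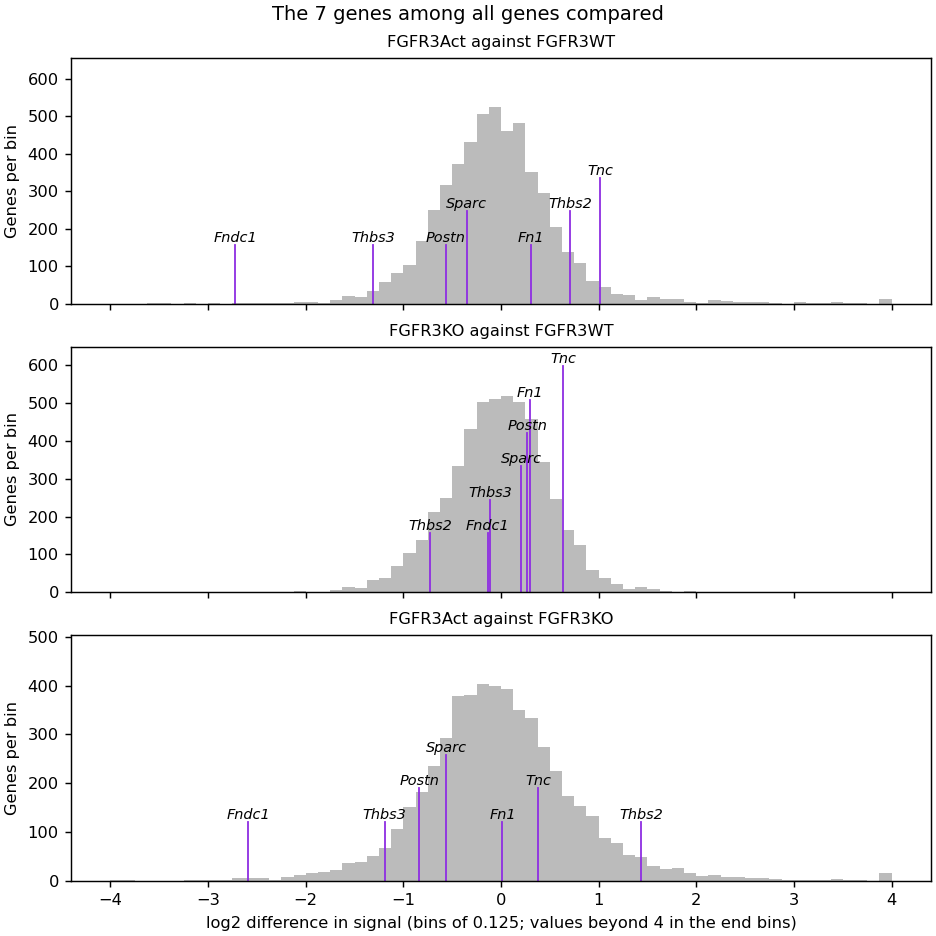
Number of genes per bin of log2 difference for each pair of arrays (grey, 5244, 5184 and 5297 genes), with the 7 genes marked by vertical lines whose heights only separate the names. Fndc1 at -2.72 and -2.59 lies in the far lower tail of both FGFR3Act comparisons. In FGFR3KO against FGFR3WT all 7 lie within 2-fold, with Thbs2 (8.95% of genes lower) and Tnc (8.10% of genes higher) farthest from the centre.

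Other matricellular and adhesion glycoproteins included several genes more than 2-fold from wild type on FGFR3KO. Of 33 listed genes, 25 were on the array and 16 could be compared in each pair. FGFR3KO was 2-fold or more above FGFR3WT for 2 and below it for 5, and the median log2 difference was -0.31. Over all genes 1.93% lay that far above, 3.61% that far below, and the median was -0.02. The 2 were fibulin 1 (Fbln1, 2.24-fold), a fibronectin-binding protein, whose other 2 probe sets were 1.62-fold and 1.92-fold higher, and the growth regulator Ccn3 (2.19-fold). The 5 were Ccn1 (2.51-fold lower) and Ccn2 (2.62-fold lower), which bind integrins and are induced by serum and tension, Ccn4 (2.59-fold lower), the galactose-binding lectin Lgals3 (2.03-fold lower) and the Sparc relative Smoc1 (at least 2.02-fold lower). Of 5 smooth muscle and pericyte markers on the array, 3 could be compared between FGFR3KO and FGFR3WT. All 3 were above FGFR3WT on FGFR3KO, with a median log2 difference of 1.38. They were the smooth muscle myosin Myh11 (at least 3.06-fold), calponin (Cnn1, 2.61-fold) and Acta2 (1.71-fold). Myh11 was below the floor on FGFR3WT and entered only through FGFR3KO. The part of these markers in the differences on FGFR3KO, those of the proteases and receptors included, was not tested.

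On FGFR3Act, 0 of those 16 genes were 2-fold or more above FGFR3WT and 2 were that far below, and the median was -0.27, against 4.14% and 4.79% and a median of -0.07 over all genes. These were Ccn4, at 1458 on FGFR3Act and 4420 on FGFR3WT (3.03-fold lower), and the filament-forming matrilin Matn2. Matn2 had 171 on FGFR3Act and 344 on FGFR3WT (2.01-fold lower). It only just passed 2-fold, and its FGFR3Act signal was not far above that array's floor of 123. Ccn4 thus lay below wild type on both mutant arrays, each set against the same FGFR3WT array. Between the mutants, FGFR3Act was 2-fold or more above FGFR3KO for 3 genes, Lgals3 (3.93-fold), Ccn2 (3.60-fold) and Ccn1 (3.04-fold). The 3 genes as far below were Ccn3 (3.35-fold), Matn4 (2.44-fold) and Fbln1 (2.28-fold, but 1.52-fold and 1.71-fold by its other 2 probe sets). Over all genes 8.33% were that far above and 7.49% that far below. Lgals3 is also abundant in macrophages, whose markers were higher on FGFR3Act, and their part in its difference was not tested. Lgals3 was also 2.03-fold lower on FGFR3KO than on FGFR3WT, where the summed macrophage and leukocyte marker signals were 1306 and 1187.

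Receptors of the family showed counts near those of the whole table. Of 24 listed genes, 20 were on the array, and 0 of 14 compared differed by 2-fold or more between FGFR3Act and FGFR3WT (median log2 difference 0.20, range -0.71 to 0.75), where 8.92% of all genes did. Between FGFR3KO and FGFR3WT it was 1 of 13, against 5.54% of all genes, and between FGFR3Act and FGFR3KO 1 of 14, against 15.8%. The integrin subunit Itgb1, shared by most fibronectin receptors, had signals of 10191 on FGFR3Act and 12323 on FGFR3KO, against 7228 on FGFR3WT. Itgav, a subunit of the receptors for periostin and osteopontin, had 7606, 10117 and 6730 on the same arrays. By these probe sets both were highest on FGFR3KO and within 2-fold in every pair. Both probe sets are of the shared or special kinds left out under an alternative setting described below. A second Itgb1 probe set, also of such a kind, had the mutants nearly level, with 4198 on FGFR3Act and 4077 on FGFR3KO, against 3114 on FGFR3WT. The other Itgav probe set, an ordinary one, had 95.7 on FGFR3Act, 113 on FGFR3KO and 104 on FGFR3WT, below the floor on all 3 arrays. The probe sets thus disagreed on whether Itgav was detected, and its level is uncertain.

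The syndecan Sdc4, a co-receptor for fibronectin, had signals of 3500 on FGFR3Act and 3068 on FGFR3KO, against 2087 on FGFR3WT. Lrp1 had 1517 on FGFR3Act and 1742 on FGFR3KO, against 1706 on FGFR3WT. Itgb5 and Sdc2 were below wild type on both mutant arrays. Itgb5 had 2146 on FGFR3Act and 2199 on FGFR3KO, against 3516 on FGFR3WT, and Sdc2 had 2389, 1347 and 2575. Of the receptors compared with FGFR3WT, 8 were above it and 6 below on FGFR3Act, and 6 above and 7 below on FGFR3KO. The probe sets of the thrombospondin receptor Cd47 disagreed: the brighter had 5605 on FGFR3Act and 6250 on FGFR3KO, against 4799 on FGFR3WT, and the other 1053, 513 and 769 on the same arrays. By the other, FGFR3Act was 2.05-fold higher than FGFR3KO, whereas by the brighter it was 1.12-fold lower, and the direction of FGFR3KO against FGFR3WT turned as well. Cd36 and Itga5, the alpha subunit of the classical fibronectin receptor, were below the floor on all 3 arrays. By the brightest probe set of each gene, the 1 receptor past 2-fold was Ptprz1, a receptor phosphatase that binds tenascins, with 353 on FGFR3Act, 166 on FGFR3KO and 390 on FGFR3WT. It was 2.35-fold lower on FGFR3KO than on FGFR3WT and 2.12-fold higher on FGFR3Act than on FGFR3KO. The FGFR3KO signal was not far above that array's floor of 122, and the other Ptprz1 probe sets were below the floor on all 3 arrays.

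Proteases that cut or process these matrix proteins showed the widest range. Of 20 listed genes, 16 were on the array and 13 could be compared between FGFR3Act and FGFR3WT, where 4 were 2-fold or more above wild type and 1 was as far below (median log2 difference 0.82). Over all genes the shares were 4.14% and 4.79%. The 4 were cathepsin S (Ctss, at least 94.6-fold), cathepsin B (Ctsb, 2.98-fold), Mmp12 (at least 41.7-fold) and stromelysin (Mmp3, 4.79-fold). Ctss stands on the macrophage list too, and Mmp12 is the macrophage elastase. Both, with Mmp9, were below the floor on FGFR3WT and entered the comparison only through FGFR3Act, where they are high. The median of 0.82 was the value of Mmp9, itself a bound. The 1 lower gene was Bmp1, a proteinase that matures procollagen (3.18-fold lower), and its other probe set was 2.87-fold lower. The folds of 2 others depended on the probe set, since Ctsb was 5.82-fold and 5.08-fold higher by its other 2 and Mmp12 at least 12.2-fold higher by its other 1.

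On FGFR3KO, 0 of 10 proteases were 2-fold or more above FGFR3WT and 2 were as far below, Mmp3 (6.85-fold), which cuts fibronectin, tenascin C and Sparc, and the collagenase Mmp13 (4.91-fold), where 1.93% of all genes lay that far above and 3.61% that far below. Between the mutants, FGFR3Act was 2-fold or more above FGFR3KO for 6 of 13, against 8.33% of all genes. Mmp9, Mmp12 and Ctss entered this comparison too only through FGFR3Act. Besides Ctss and Mmp12 the 6 were Mmp3 (32.8-fold), Ctsb (2.72-fold), Mmp13 (2.64-fold) and the urokinase gene Plau (2.29-fold), and Bmp1 was 4.48-fold lower. By their other probe sets Ctsb was 7.11-fold and 8.15-fold higher and Bmp1 2.34-fold lower.

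**Figure D4:**
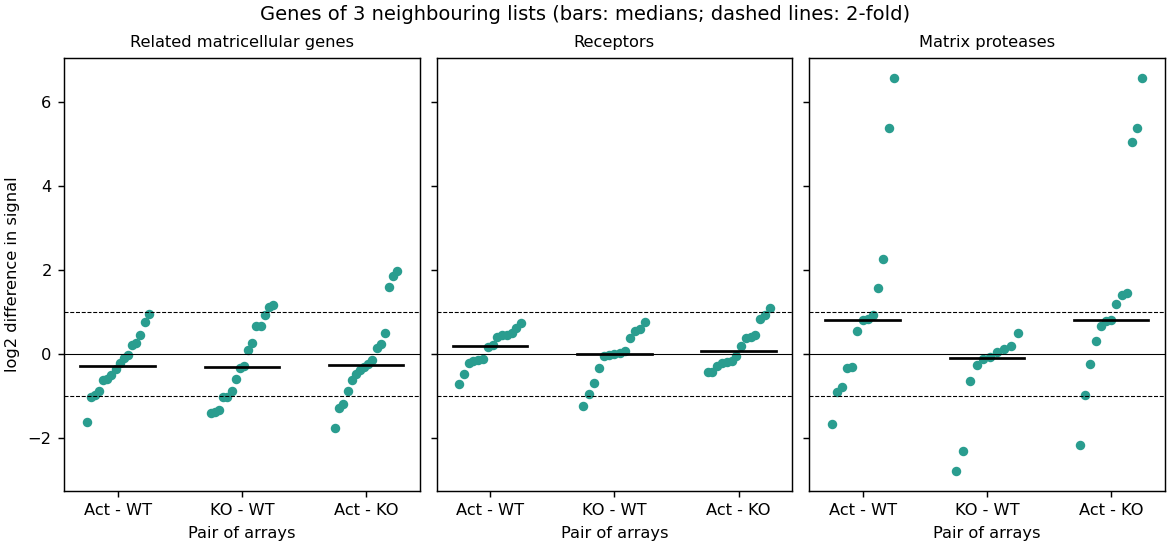
Log2 difference in signal of every compared gene of the related matricellular, receptor and matrix protease lists for each pair of arrays (points, sorted within each pair), with medians as bars and 2-fold as dashed lines. Of the receptors Ptprz1 alone passes 2-fold by the probe sets plotted, while the protease list reaches 6.56 (Ctss) on FGFR3Act against FGFR3WT and -2.78 (Mmp3) on FGFR3KO against FGFR3WT.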

How the data were processed

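Biotin-labelled cRNA from 15 μg of total RNA per sample was hybridised to Affymetrix arrays, per the labels' protocols. The deposited values are linear intensities, made with MAS5 per the submitters' processing notes; its version, scaling target and detection calls were not given there. The table held 9889 probe sets, 18 of them controls. GEO's platform annotation gave 9053 of them 1 symbol and 323 several, and 9041 were updated by gene identifier through RefSeq (GRCm38.p6), whose gene coordinates are given. Where a gene had several probe sets, the brightest by mean log2 signal stood for it.

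Signals under the 40th percentile of an array's non-control probe sets were raised to that floor before log2 was taken. Pairs used genes that passed the floor on 1 or both arrays, and a fold against a floored array is a bound. A 2-fold difference describes size and is not a test. All 7 measured members and Fgfr3 were named, and of the related matricellular, receptor and protease lists the genes at least 2-fold apart; receptors and markers named beyond that were chosen after their values were seen. The members and lists were chosen with earlier results of these data known. Alternatives used limma 3.58.1 in R 4.3.3, other steps Python 3.11.15, and the arithmetic was tested on simulated data.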

Additional observations from a re-analysis of the deposited data

How the results depend on the processing

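Processing was varied in 10 ways: quantile, cyclic loess and median normalisation, floors at the 20th and 60th percentiles, an offset of 12.2 instead of a floor, a filter for both arrays, no filter, averaging a gene's probe sets, and dropping those of shared or special kinds; scaling on 11 fibroblast markers was added after the data were seen. The marker scaling was first run on the markers' median level, which was that of S100a4 on all 3 arrays, and then redefined, after its values were seen, as their median deviation from the mean of the arrays; both are given, since they moved FGFR3Act in opposite directions. Of 252 single-gene differences under these settings, 248 moved by less than 1.5-fold and 0 of those past 2-fold changed sign. Much of this count was fixed in advance and is no measure of robustness. Each gene has 1 ordinary probe set above the floor on every array. The lower floor, both filters, averaging and dropping of probe sets therefore returned the same values. Median normalisation and the marker scalings shifted all genes of an array alike. Moves of at least 1.5-fold were Fndc1 and Thbs3 with the floor at the 60th percentile, in both FGFR3Act comparisons, where the FGFR3Act signals were raised to the floor. The count of genes 2-fold or more above FGFR3WT on FGFR3Act, 1 as reported, became 0 after cyclic loess, 0 after centring on the marker level and 2 after the marker shift. The count as far below, 2 as reported, became 1 with the floor at the 60th percentile and 1 after the marker shift, both against FGFR3WT and against FGFR3KO. The median of the 7 genes on FGFR3Act against FGFR3WT ranged between -0.70 after centring on the marker level and 0.15 after the marker shift. Against FGFR3KO the count as far below was 3 after centring on the marker level, and for FGFR3KO against FGFR3WT that centring put 129 of all genes 2-fold or more above and 141 as far below, against 100 and 187 as reported. No paired analysis was possible because each genotype has 1 array column, and for the same reason no array could be left out of a group. Low signals limit Fndc1 and Thbs3 on FGFR3Act, at 1.18 and 1.67 times the floor.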
